A study of Mus musculus with 7 samples.

Results

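The cytochrome P450 genes Cyp2a4, Cyp2a5, Cyp2a12, Cyp2a22, Cyp2b9, Cyp2b10, Cyp2b13, Cyp2f2 and Cyp2g1 lie together on mouse chromosome 7, and the CTCF and Rad21 peaks around them were used to describe how these 9 members are set apart from one another. The 9 members were chosen by name. Their span in the mm9 annotation, from the start of Cyp2b10 to the end of Cyp2f2, was extended by 100 kb on each side to chr7:26582639-28018679, a window of 1436 kb. All 9 symbols were found there. Of the 68667 peaks of the CTCF list and the 68656 peaks of the Rad21 list, 46 CTCF peaks and 52 Rad21 peaks overlapped this window. The data are ChIP-seq peak lists from the liver of untreated female mice of the outbred CD-1 stock, Crl:CD1(ICR), aged 8 weeks, with chromatin immunoprecipitated by an antibody to CTCF (4 libraries) or to the cohesin subunit Rad21 (3 libraries). Chromatin came from nuclei of whole liver, so the cell types of the organ cannot be told apart. The libraries of each antibody were pooled before peaks were called, which leaves 1 list per antibody, no replicates and no SD. All values below are therefore descriptions without a test, and the lists hold no expression values against which the tissue label could be checked.

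Enzymes of the CYP2 family oxidise drugs, steroids and other foreign or endogenous lipophilic compounds, mainly in the endoplasmic reticulum of hepatocytes. Cyp2b10 is the classical target of the nuclear receptor CAR, while Cyp2b9, Cyp2b13 and Cyp2a4 are known for higher expression in female than in male mouse liver. Cyp2a5 hydroxylates coumarin and nicotine, Cyp2a12 hydroxylates steroids, Cyp2f2 activates naphthalene in airway and liver, and Cyp2g1 is known from the olfactory mucosa. CTCF is a zinc finger protein that binds a long DNA motif, and cohesin, a ring-shaped complex that includes Rad21, extrudes chromatin loops and is halted at CTCF sites, most readily where the motifs at both ends of a loop point towards each other. Sites with both proteins are called CAC (cohesin-and-CTCF) here, CTCF peaks without a Rad21 peak Lone CTCF, and Rad21 peaks without a CTCF peak CNC (cohesin-non-CTCF), with an overlap of at least 1 bp counted as shared.

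The 3 Cyp2b members carried the same CTCF site at the same place. In Cyp2b10, Cyp2b13 and Cyp2b9 a CAC peak covered a 20-base CTCF motif that began 27 bases into intron 8, and the motif was identical in the 3 genes. Copies of the surrounding sequence were looked for by alignment across the window, and 9 copies were found, 6 of which had a CAC peak and 3 of which had no peak in either list. As the search started from sequence at listed peaks, 6 of 9 is not a rate at which copies are bound. The 9 copies are printed below from the mm9 reference, since they show which bases the copies with and without a peak share. The 20 bases of the motif are in capitals, with 15 bases on each side, on the strand on which the motif reads.
Cyp2b10 intron 8, CAC, chr7:26702460-26702509, plus strand: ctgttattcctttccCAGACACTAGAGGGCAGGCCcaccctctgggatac
Between Cyp2b10 and Cyp2b13, CAC, chr7:26773486-26773535, plus strand: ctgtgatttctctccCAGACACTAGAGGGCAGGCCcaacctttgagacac
Cyp2b13 intron 8, CAC, chr7:26873773-26873822, plus strand: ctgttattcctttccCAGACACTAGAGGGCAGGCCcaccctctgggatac
Cyp2b9 intron 8, CAC, chr7:26986263-26986312, plus strand: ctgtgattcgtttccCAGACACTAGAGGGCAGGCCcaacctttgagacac
Between Cyp2b23 and Cyp2b19, CAC, chr7:27524123-27524172, plus strand: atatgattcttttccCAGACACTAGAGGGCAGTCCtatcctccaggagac
Cyp2b19 intron 8, CAC, chr7:27552276-27552325, plus strand: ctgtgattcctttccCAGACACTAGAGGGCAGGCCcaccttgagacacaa
Between Cyp2b10 and Cyp2b13, no peak, chr7:26800018-26800067, minus strand: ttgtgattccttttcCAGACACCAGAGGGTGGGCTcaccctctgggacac
Between Cyp2b13 and Cyp2b9, no peak, chr7:26919715-26919764, minus strand: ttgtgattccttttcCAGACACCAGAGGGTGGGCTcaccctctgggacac
Cyp2b23 intron 8, no peak, chr7:27457683-27457732, minus strand: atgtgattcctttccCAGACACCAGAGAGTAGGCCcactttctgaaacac

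With positions counted from 1 at the 5′ end of the capitals and the Cyp2b10 copy as the reference, the 3 copies without a peak shared the substitutions T8C and C15T. The copies between Cyp2b10 and Cyp2b13 and between Cyp2b13 and Cyp2b9 further carried A16G and C20T, and the copy in Cyp2b23 carried G13A. The 6 copies with a CAC peak had none of these. Their only substitution was G18T, at the copy between Cyp2b23 and Cyp2b19. The motif score was 14.4 bits in 5 of the 6 copies with a peak and 16.9 bits at the copy with G18T. It was 11.8 bits in both copies between Cyp2b members without a peak and 3.74 bits in Cyp2b23, where the threshold for a motif was 13.5 bits. The 20 bases of the Cyp2b10 copy occurred 5 times in the mm9 genome, at these 5 copies, and all of them had a CAC peak. Cyp2b19, known from skin, and Cyp2b23 are further Cyp2b genes that lie in the interval between Cyp2a4 and Cyp2g1.

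The strength of the peaks at these copies differed between the genes. CTCF fold enrichment, which is the pileup at the summit over the local background as MACS2 gives it, was 17.0 in Cyp2b10, 12.4 in Cyp2b13 and 8.38 in Cyp2b9. It was 11.8 at the copy between Cyp2b10 and Cyp2b13, 11.5 at the copy between Cyp2b23 and Cyp2b19 and 13.8 in Cyp2b19. Rad21 fold enrichment was 11.3 in Cyp2b10, 12.2 in Cyp2b13 and 8.03 in Cyp2b9, and its highest value, 17.4, was at the copy between Cyp2b10 and Cyp2b13. The lowest Rad21 value, 6.47, was found both at the copy between Cyp2b23 and Cyp2b19 and in Cyp2b19. Cyp2b9 thus had the weakest CTCF peak of the 6 copies, and Cyp2b10 the strongest. Only uniquely mapped reads were kept by the authors, so sequence that recurs in the genome can yield fewer reads. The share of 50-base words found once in mm9 was 73.2% at the Cyp2b10 copy, 79.0% in Cyp2b13 and 91.4% in Cyp2b9, and 93.2 to 100% at the other 3 copies with a peak. Among the copies without a peak it was 40.2% between Cyp2b10 and Cyp2b13, 39.9% between Cyp2b13 and Cyp2b9 and 89.8% in Cyp2b23. The part of this difference in the absence of peaks was not tested. In 4 of the 6 copies with a peak, the 3 members and the copy between Cyp2b10 and Cyp2b13, the CTCF summit lay 72 to 87 bp from the middle of the motif, against 14 and 33 bp at the copies next to and in Cyp2b19. The RefSeq gene table, which is on GRCm38.p6 and was used for gene order alone, names Cyp2b28-ps and Cyp2b27-ps between Cyp2b10 and Cyp2b13 and Cyp2b26-ps between Cyp2b13 and Cyp2b9.

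**Figure D1:**
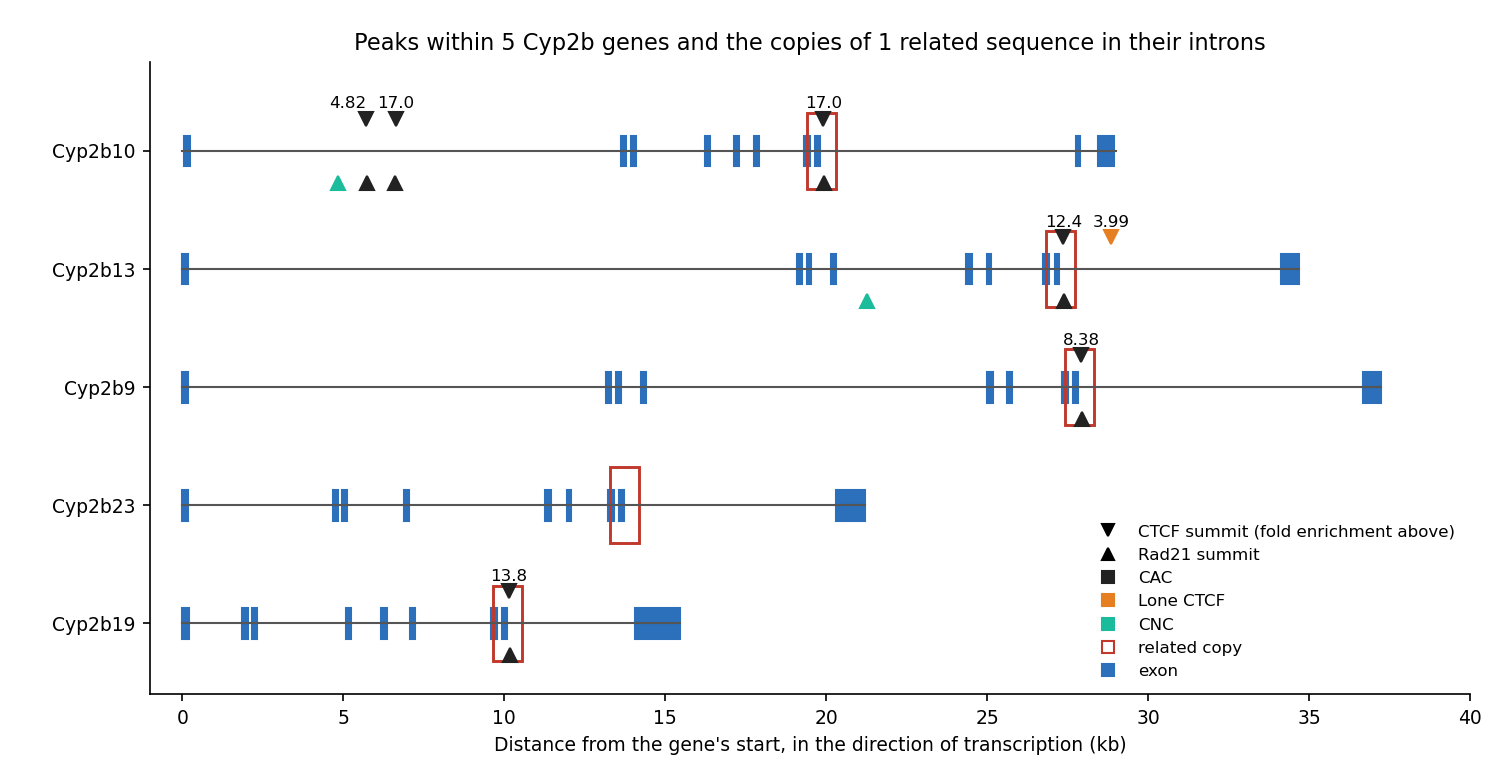
Peaks within 5 Cyp2b genes, with genes and exons drawn to scale from each gene's start in the direction of transcription (kb), CTCF summits above the line with their fold enrichment and Rad21 summits below it. The red frames mark the position of the related copy and are wider than it. It follows exon 8 in all 5 genes and had CTCF values of 17.0, 12.4, 8.38 and 13.8 in Cyp2b10, Cyp2b13, Cyp2b9 and Cyp2b19 and no peak in Cyp2b23.

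Cyp2a4 and Cyp2a5, 2 of the 4 Cyp2a members, had a shared site as well, but downstream of the genes. CAC peaks lay 13.3 kb from the start of Cyp2a4 and 13.4 kb from the start of Cyp2a5, beyond the end of either gene, and their sequences were 95.7% identical over 301 aligned bases. Another copy lay between Cyp2a22 and Cyp2a12, before the starts of both genes, where RefSeq names Cyp2a21-ps, and had a Rad21 peak but no CTCF peak. The 3 motifs are printed because the copy without a CTCF peak and the Cyp2a5 copy are identical over all 50 bases shown. Capitals again mark the 20 bases of the motif.
Downstream of Cyp2a4, CAC, chr7:27105561-27105610, minus strand: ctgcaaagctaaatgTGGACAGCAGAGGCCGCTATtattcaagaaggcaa
Downstream of Cyp2a5, CAC, chr7:27633748-27633797, minus strand: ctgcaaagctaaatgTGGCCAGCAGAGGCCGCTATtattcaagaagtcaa
Between Cyp2a22 and Cyp2a12, CNC, chr7:27746084-27746133, minus strand: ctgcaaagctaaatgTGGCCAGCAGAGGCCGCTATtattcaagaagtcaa

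The Cyp2a5 copy differed from the Cyp2a4 copy within the motif by A4C, with the Cyp2a4 base first. Motif scores were 16.2 bits at the Cyp2a4 copy and 19.5 bits at each of the other 2. CTCF fold enrichment was 8.80 at the Cyp2a4 copy and 5.91 at the Cyp2a5 copy, and Rad21 fold enrichment was 7.63 and 8.79. At the copy between Cyp2a22 and Cyp2a12 the Rad21 value was 3.82, a CNC peak that was stronger than 30.4% of the Rad21 list. The higher motif score thus went with the lower CTCF value at these copies. The share of 50-base words found once was 77.3% at the Cyp2a4 copy, 46.3% at the Cyp2a5 copy and 36.9% at the copy between Cyp2a22 and Cyp2a12, and its part in these values was not tested. The motif lay 114 bp from the CTCF summit at Cyp2a4 and 92 bp at Cyp2a5. As it was not wholly within 100 bp of either summit, both peaks count as CAC peaks without a motif in the counts below.

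**Figure D2:**
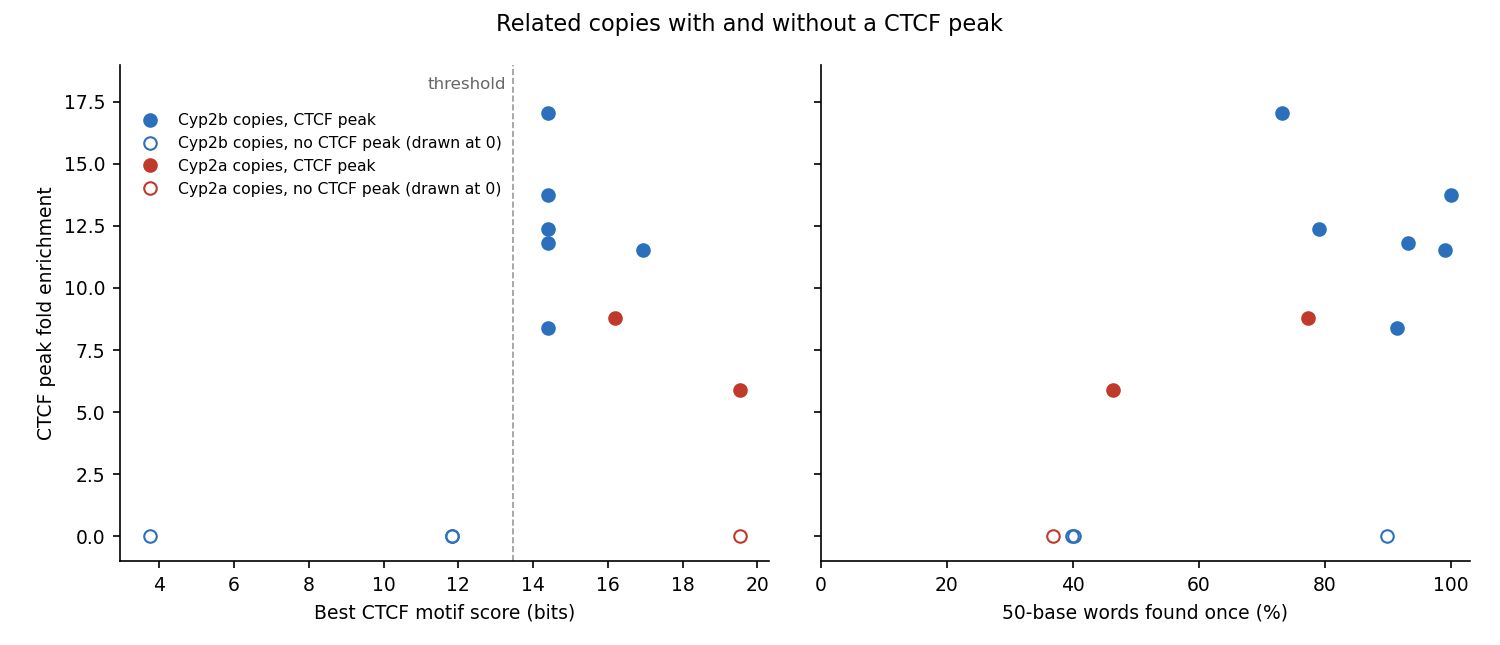
CTCF peak fold enrichment of the 9 Cyp2b copies and the 3 Cyp2a copies against their best motif score in bits (left, dashed line at the motif threshold of 13.5 bits) and against the share of 50-base words found once in mm9 in percent (right), with open circles at 0 for copies without a CTCF peak. The 6 Cyp2b copies with a peak score 14.4 or 16.9 bits and the 3 without one 11.8 bits or less, while 1 Cyp2a copy without a CTCF peak scores 19.5 bits.

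Along the window the members fell into a left block of Cyp2b genes, followed by Cyp2a4 alone, a long interval without members, and a right block of Cyp2g1, Cyp2a5, Cyp2a22, Cyp2a12 and Cyp2f2. All members are on the plus strand except Cyp2a22. The peaks were crowded at both ends: the 2 flanks of 100 kb together held 21 of the 46 CTCF peaks and 22 of the 52 Rad21 peaks. Between the start of Cyp2b10 and the end of Cyp2f2 there were 25 CTCF peaks in 1236 kb, or 2.02 per 100 kb, against 10.5 per 100 kb in the flanks. For Rad21 the values were 30 peaks, or 2.43 per 100 kb, and 11 per 100 kb. In the flank before Cyp2b10 the strongest CTCF peak (24.7, chr7:26640055-26640528) had a Rad21 value of 18.4 and was stronger than 98.0% of the CTCF list. Its best motif match, at 13.46 bits, was just under the threshold of 13.48 bits. In the flank after Cyp2f2 the strongest peak, with a CTCF value of 17.3 and a Rad21 value of 11.01, was in an intron of Egln2, an oxygen-sensing prolyl hydroxylase (chr7:27944768-27945289).

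**Figure D3:**
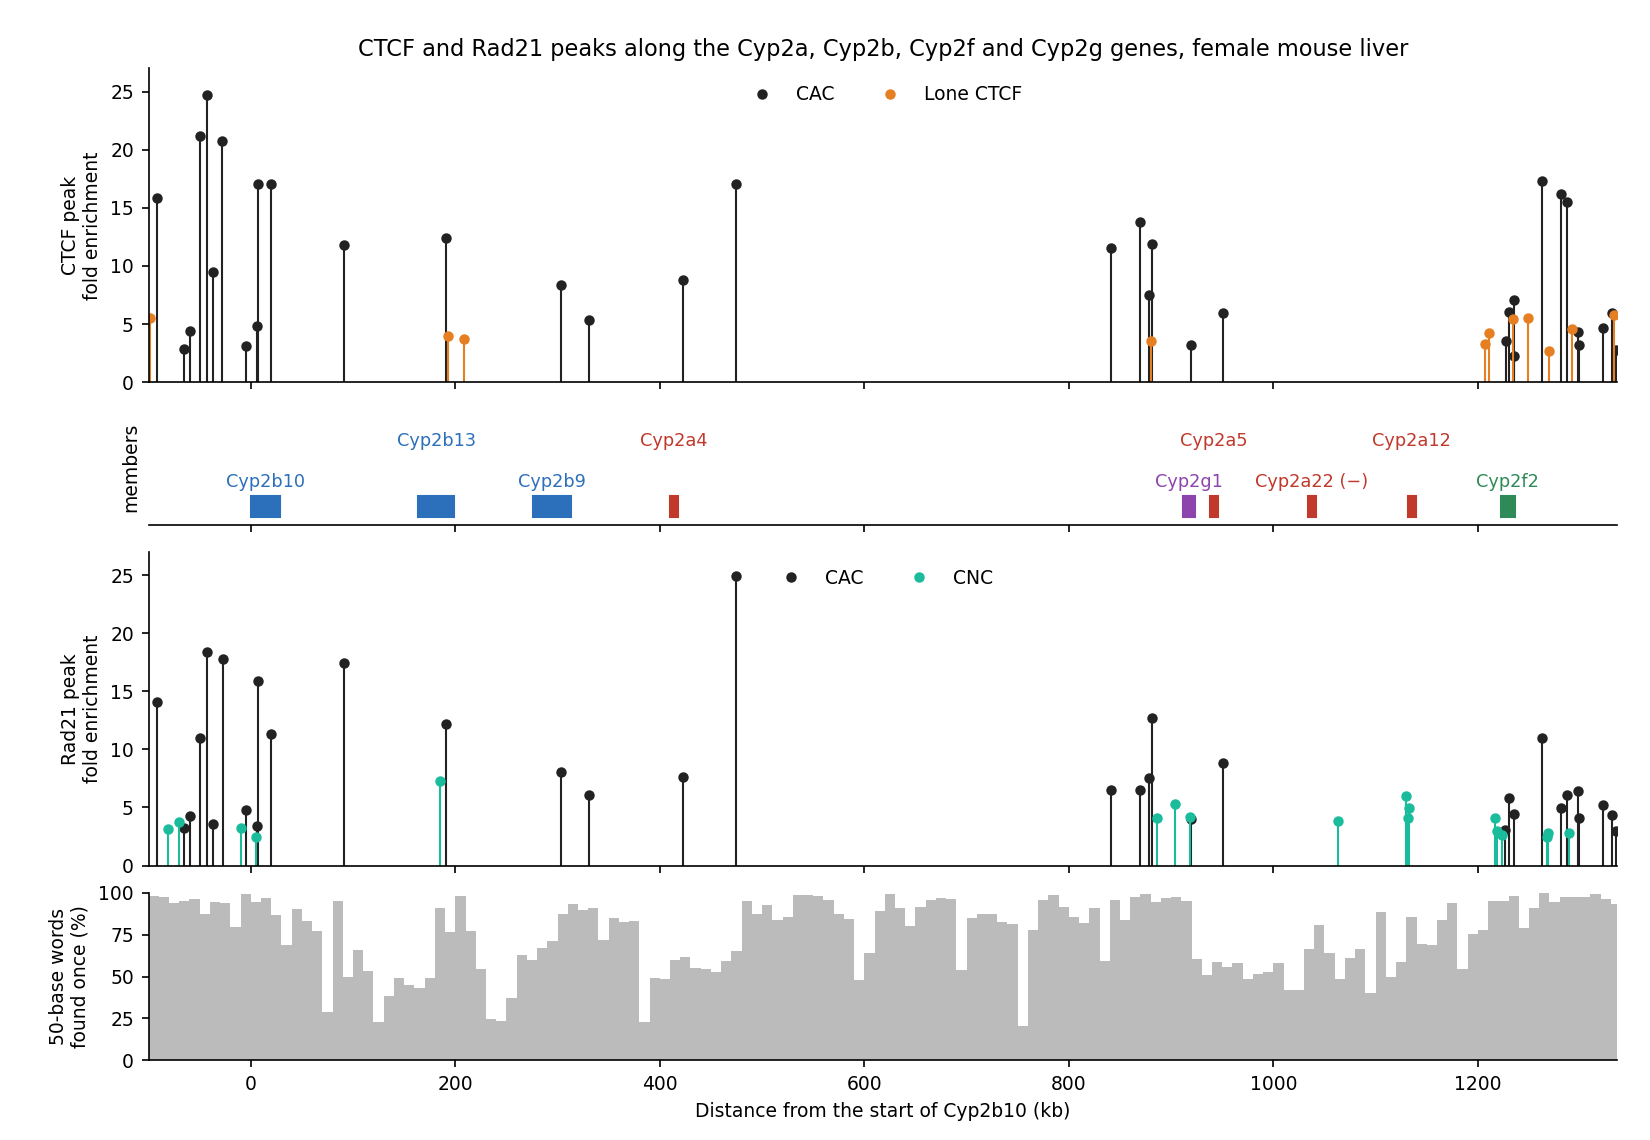
Fold enrichment at the summit of each CTCF peak (top) and Rad21 peak (panel under the genes) against distance from the start of Cyp2b10 in kb, with the 9 members drawn to scale in the second panel and the share of 50-base words found once in mm9 per 10 kb (percent) at the bottom. The 46 CTCF peaks and 52 Rad21 peaks crowd at both ends, and none lies in the 366 kb between the peak in Nlrp9c and the copy before Cyp2b19.

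Of the 46 CTCF peaks in the window, 35 were CAC (76.1%, 95% Wilson interval 62.1 to 86.1%), compared with 73.8% of the 67010 CTCF peaks on autosomes. The interval covers counting error only. Of the 52 Rad21 peaks, 18 were CNC (34.6%, 23.2 to 48.2%), compared with 26.6% of the 67228 autosomal Rad21 peaks. Both autosomal shares lay within the intervals. The median CTCF fold enrichment was 5.83 in the window and 6.03 on autosomes, and the median for Rad21 was 4.94 and 4.91. The 11 Lone CTCF peaks had values from 2.69 to 5.75 and the 18 CNC peaks from 2.45 to 7.30.

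Whether CAC peaks lay between neighbouring members depended on what was counted as between. Between the gene bodies, 4 of the 8 gaps held a CAC peak, 2 of the 4 gaps within a subfamily and 2 of the 4 gaps between subfamilies. Of autosomal tiles of the gaps' median length, 88.9 kb, 55.6% held the summit of a CAC peak. The gaps between subfamilies held 7 CAC peaks in 688 kb, 6 of them in the interval from Cyp2a4 to Cyp2g1, and those within a subfamily 2 in 390 kb. Between start sites, where peaks inside a gene count as well if the gene body lies between the starts, 6 of the 8 pairs were separated by a CAC peak, 3 of the 4 pairs of the same subfamily and 3 of the 4 pairs of different subfamilies. Of autosomal tiles of the median distance between the starts, 108 kb, 58.8% held a CAC peak. With 8 gaps and 8 pairs, neither count is read as particular to the members. The pairs without a CAC peak between their starts were Cyp2a22 with Cyp2a12, 89.7 kb apart, and Cyp2a12 with Cyp2f2, 90.8 kb apart. Cyp2a22, Cyp2a12 and Cyp2f2 shared 1 interval of 276 kb between CAC summits, from the peak downstream of Cyp2a5 to the peak in Cyp2f2. The other 6 members each had a start site alone between consecutive CAC peaks, in intervals from 9.96 kb at Cyp2b10 to 112 kb at Cyp2b9. Fewer pairs were separated when only CAC peaks with a motif near the summit were counted. No autosomal tile share was computed for such peaks, so the motif counts that follow are not read as particular to the members. Such a peak lay between the starts of 4 of the 8 pairs, 2 of the same and 2 of different subfamilies. Cyp2g1, Cyp2a5, Cyp2a22, Cyp2a12 and Cyp2f2 then shared 1 interval of 357 kb, from a peak downstream of Cyp2b19 to one in Cyp2f2, with the motifs at both ends on the plus strand. These values rest on the limit of 100 bp from the summit. With a motif anywhere in the peak counted as well, the minus-strand motifs downstream of Cyp2a4 and Cyp2a5 were the only ones added, and 5 of the 8 pairs were separated. Cyp2g1 and Cyp2a5 then shared an interval of 72.6 kb whose motifs pointed towards each other, and Cyp2a22, Cyp2a12 and Cyp2f2 one of 284 kb whose motifs pointed away from each other. Within 50 bp of the summit, the copies in the 3 Cyp2b members and between Cyp2b10 and Cyp2b13 scored 4.34 bits or less. With that limit these copies have no motif. No CAC peak with one then lies between the starts of Cyp2b13 and Cyp2b9 or of Cyp2b9 and Cyp2a4.

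**Figure D4:**
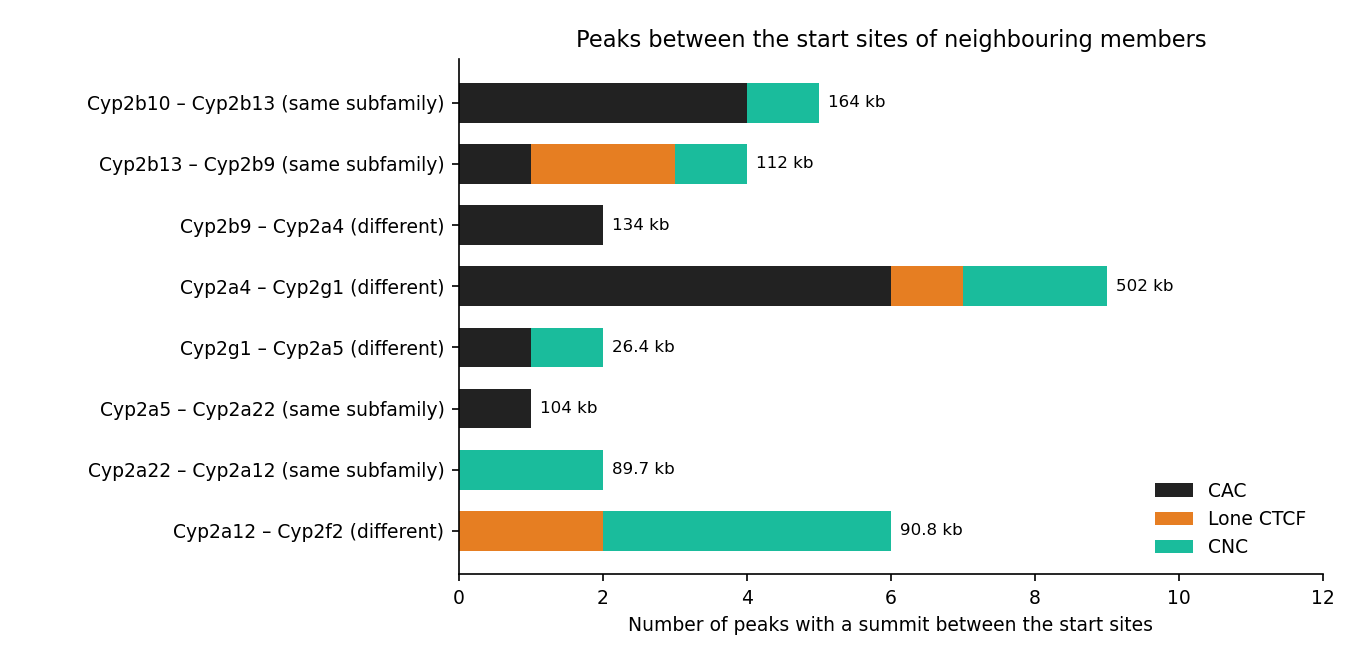
Number of CAC, Lone CTCF and CNC peaks whose summit lies between the start sites of each neighbouring pair of members, with the distance between the starts in kb beside each bar. CAC peaks are found in 6 of the 8 pairs, with the most, 6, between Cyp2a4 and Cyp2g1 over 502 kb and none in the last 2 pairs.

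In the Cyp2b block, Cyp2b10 (chr7:26682639-26711643) had the most peaks of the 3 members. Its body held 3 CAC peaks with CTCF values of 4.82, 17.0 and 17.0 and a CNC peak of 2.46. The first intron held a pair of CAC peaks, of which the stronger (chr7:26689029-26689560, Rad21 15.9) carried a motif of 17.5 bits on the minus strand. A weaker CAC peak lay 4.24 kb before the start of Cyp2b10, with values of 3.08 for CTCF and 4.79 for Rad21. Between CAC peaks with a motif, the start of Cyp2b10 lay in an interval of 34.3 kb whose motifs pointed towards each other, from a flank peak with values of 20.7 for CTCF and 17.8 for Rad21 to this peak in intron 1.

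Cyp2b13 (chr7:26846514-26881215) and Cyp2b9 (chr7:26958430-26995680) had fewer peaks, and none within 10 kb of their starts. Upstream of Cyp2b13 the nearest CAC peak was the copy 72.9 kb away, and downstream it was the copy in its own intron 8, 27.4 kb from the start. Upstream of Cyp2b9 the nearest CAC peak was 84.5 kb away, in Cyp2b13, and downstream 27.9 kb away, in its own intron 8. Both starts thus lay between copies of the same site, in intervals of 100.3 kb and 112 kb whose motifs were all on the plus strand. The gap between the 2 gene bodies held a Lone CTCF peak alone, with a value of 3.71 (chr7:26890990-26891292). Cyp2b13 further held a Lone CTCF peak of 3.99 and a CNC peak of 7.30 in intron 4, the strongest CNC peak of the window (chr7:26867523-26867964). The sequence of that CNC peak recurred in intron 4 of Cyp2b9 with 84.8% identity, and there no peak was listed. Of the 50-base words of that copy, 97.02% were found once. Further copies without a peak lay in intron 4 of Cyp2b23 (83.1%) and in the gaps on either side of Cyp2b13 (0% in both). The part of such shares in the difference was not tested. The coding sequences of Cyp2b13 and Cyp2b9 were 92.5% identical, and each was 87.7 to 88.6% identical to that of Cyp2b10.

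Between Cyp2b9 and Cyp2a4, 96.5 kb held 1 CAC peak (chr7:27013470-27013772) with values of 5.36 for CTCF and 6.05 for Rad21 and no motif, together with the vomeronasal receptor gene Vmn1r184. Cyp2a4 (chr7:27092209-27100107) had no peak in its body or within 10 kb of its start. Its nearest CAC peaks were this one, 78.6 kb upstream, and the shared Cyp2a site 13.3 kb downstream. Between CAC peaks with a motif within 100 bp of the summit, Cyp2a4 lay in an interval of 171 kb whose motifs pointed towards each other, from the copy in Cyp2b9 to a peak in Nlrp9c, a gene known from oocytes. With the motif of the shared Cyp2a site counted, this interval ended downstream of Cyp2a4 and was 119 kb long, with motifs again pointing towards each other.

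The interval between Cyp2a4 and Cyp2g1, 494 kb without a member, held 6 CAC peaks. The peak in an intron of Nlrp9c (chr7:27157282-27157703) had a CTCF value of 17.0. Its Rad21 value of 24.9 was the highest of the window and above 99.1% of the Rad21 list. After it, 366 kb with Nlrp4a, Nlrp9a, Vmn1r185 and Cyp2b23 had no peak of either list. Such a stretch was longer than 99.1% of the 83600 autosomal stretches between peaks, whose median was 8.83 kb. In it 84.6% of 50-base words were found once. Apart from the shared Cyp2a site downstream of Cyp2a4, the remaining 4 CAC peaks lay in and around Cyp2b19. They were the copies described above and a pair of peaks downstream of the gene with CTCF values of 7.49 (motif of 21.1 bits) and 11.9 (Rad21 12.7, no motif).

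Cyp2g1 (chr7:27593946-27606216) and Cyp2a5 (chr7:27620324-27628567) had weak peaks or none. Cyp2g1 held 1 CAC peak 7.79 kb after its start, with values of 3.16 for CTCF and 3.98 for Rad21 and no motif, and a CNC peak of 4.15. The CTCF peak was stronger than 11.5% of the list, and it was the only CAC peak between the starts of Cyp2g1 and Cyp2a5. The 14.1 kb between these 2 gene bodies held no peak, and 49.5% of its 50-base words were found once. Cyp2a5 had no peak in its body or within 10 kb of its start, like Cyp2a4, to which its coding sequence was 98.5% identical, with 23 differing bases of 1485.

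Cyp2a22 (chr7:27716650-27724405) and Cyp2a12 (chr7:27814109-27821826) differed in their peaks, while their coding sequences were identical at all but 45 of 1479 bases. Cyp2a22 had no peak within 10 kb of its start, and its nearest CTCF peak was 90.7 kb away. Cyp2a12 had no CTCF peak within 75.4 kb of its start, but 3 CNC peaks within 5 kb of it. These were 2.23 kb upstream (5.97), at the start itself with a summit 38 bp into the gene (4.05), and in intron 2 (4.93). The sequence of the upstream peak recurred before Cyp2a22 with 96.0% identity over 301 bases, and that of the peak at the start recurred at the start of Cyp2a22 with 96.0% identity over 299 bases. No peak was listed at either place. The share of 50-base words found once within 5 kb of the start was 79.0% for Cyp2a22 and 82.6% for Cyp2a12. The region before the starts is printed for both genes, as the Rad21 peak of Cyp2a12 (chr7:27813787-27814276) covered it, with bases that differ between the genes in capitals.
Cyp2a12 upstream, chr7:27813909-27814097, plus strand: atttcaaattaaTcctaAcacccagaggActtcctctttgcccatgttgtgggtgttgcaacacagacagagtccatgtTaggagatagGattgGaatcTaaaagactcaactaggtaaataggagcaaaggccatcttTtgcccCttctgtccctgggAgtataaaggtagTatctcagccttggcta
Cyp2a22 upstream, chr7:27724406-27724594, minus strand: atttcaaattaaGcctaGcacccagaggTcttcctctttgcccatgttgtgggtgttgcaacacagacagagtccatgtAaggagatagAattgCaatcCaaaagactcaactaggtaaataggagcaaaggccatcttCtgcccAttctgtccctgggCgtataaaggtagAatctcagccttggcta
The 2 sequences were 94.2% identical, with 11 differing bases of 189 and no gap, and in each 99.5% of the 50-base words that begin in the 200 bases before the start were found once. Over the 301 bases around the Rad21 summit, which reach into the first exon, the share was lower, at 66.4% for Cyp2a12 and 69.4% for the matching copy at Cyp2a22. The part of these shares in the difference between the genes was not tested.

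Around Cyp2a22 and Cyp2a12 no CTCF peak was listed over 256 kb, from the end of the peak downstream of Cyp2a5 to a Lone CTCF peak before Cyp2f2. Stretches between autosomal CTCF peaks were shorter in 98.0% of 66991 cases, with a median of 11.5 kb. In this stretch 62.9% of 50-base words were found once, below the 75.5% of the whole window and the 89.3% of sampled autosomal positions. The interval between Cyp2a12 and Cyp2f2 held 2 Lone CTCF peaks, with values of 3.30 and 4.26, and 2 CNC peaks, with values of 4.07 and 2.94.

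Cyp2f2 (chr7:27904928-27918679) had the most CTCF peaks of any member. It held 5, of which 4 were CAC, and 4 Rad21 peaks. The CTCF values were 3.55, 6.03, 5.41, 7.06 and 2.28 in order along the gene, and that of 5.41 was a Lone CTCF peak. The strongest (chr7:27917557-27917962) was the only CAC peak of Cyp2f2 with a motif. Its Rad21 value was 4.42. A CNC peak of 2.64 lay 1.70 kb after the start, in a coding exon. The strongest CTCF peak of the gene was stronger than 55.8% of the CTCF list and the weakest was stronger than 0.417%. The first 2 CAC peaks lay where the transcript Gm15883 overlaps the gene.

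Start sites of members had few peaks. With a distance of 5 kb, 2 of the 9 members, Cyp2b10 and Cyp2f2, had a CTCF peak at the start, while 63.3% of 21418 autosomal protein-coding genes did. A Rad21 peak was found for 3 of the 9 members, Cyp2b10, Cyp2a12 and Cyp2f2, against 62.0% of these genes. Counted from the outermost start of each gene, Cyp2a12 was the only member with a peak of either list within 1 kb. That Rad21 peak had a fold enrichment of 4.05 and a −log10 q of 7.27, below the alternative thresholds of 5 and 10. From another annotated start inside Cyp2b10, its CAC peak at the shared Cyp2b site lay 772 bp away for CTCF and 789 bp for Rad21. Autosomal shares were computed for 5 kb alone. At 10 kb from the outermost starts Cyp2g1 was added. Its nearest Rad21 peak was 7.28 kb away, and the nearest Rad21 peak of the 5 remaining members was 13.3 to 27.9 kb away. By subfamily, the Cyp2b start regions had 44.6% (Cyp2b13), 59.9% (Cyp2b9) and 94.7% (Cyp2b10) of their 50-base words found once, and Cyp2a4 and Cyp2a5 had 53.2% and 52.5%. The values for Cyp2f2 and Cyp2g1 were 97.7% and 97.02%. Cyp2g1, with a share among the highest of the members, lacked a peak within 5 kb. The part of these shares in the missing peaks was not tested.

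A CTCF motif was found within 100 bp of the summit of 23 of the 46 CTCF peaks (50%, Wilson interval 36.1 to 63.9%), compared with 44.3% of 36514 CTCF peaks on odd-numbered autosomes. The matrix was learned on other chromosomes. Among the 35 CAC peaks 14 had a motif (40%, 25.6 to 56.4%), compared with 45.6% of CAC peaks on odd-numbered autosomes. Among the 11 Lone CTCF peaks 9 had one (81.8%, 52.3 to 94.9%), compared with 40.8% of Lone CTCF peaks there. The share on autosomes lay within the interval for CAC peaks and below it for Lone CTCF peaks, of which there were few. Of the 14 CAC motifs, 12 were on the plus strand, including all 6 Cyp2b copies, which are related copies of 1 sequence. The motifs downstream of Cyp2a4 and Cyp2a5, not counted here, were on the minus strand. The strand share on autosomes was not computed, so this count is not read as particular to the window. Some motifs were part of highly repeated sequence. The exact 20 bases occurred 10 or more times in mm9 for 1 of the 14 CAC motifs and 4 of the 9 Lone CTCF motifs. The median number of copies was 4 for CAC motifs and 5 for Lone CTCF motifs. Copy numbers were not computed for motifs on autosomes, so no difference between the classes is read from these counts. Motifs of 3 Lone CTCF and 3 CAC peaks in or near members are set side by side here with the number of genomic copies, to show that both classes held repeated and single-copy motifs.
Cyp2b13 intron 8, Lone CTCF, 857 copies, chr7:26875275-26875324, plus strand: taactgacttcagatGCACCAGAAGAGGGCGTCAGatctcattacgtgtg
Between Cyp2a12 and Cyp2f2, Lone CTCF, 273 copies, chr7:27889481-27889530, minus strand: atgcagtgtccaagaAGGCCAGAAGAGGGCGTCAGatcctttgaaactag
Cyp2f2 intron, Lone CTCF, 1 copy, chr7:27916584-27916633, plus strand: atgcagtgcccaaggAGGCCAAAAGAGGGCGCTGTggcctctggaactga
Flank before Cyp2b10, CAC, 119 copies, chr7:26654970-26655019, plus strand: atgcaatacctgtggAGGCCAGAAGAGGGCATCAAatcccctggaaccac
Cyp2b10 intron 1, CAC, 3 copies, chr7:26689244-26689293, minus strand: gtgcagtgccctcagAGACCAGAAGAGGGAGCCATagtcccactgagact
Cyp2f2, CAC, 1 copy, chr7:27917757-27917806, plus strand: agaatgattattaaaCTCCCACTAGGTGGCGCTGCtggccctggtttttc

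A pair of other P450 loci, Cyp2c and Cyp3a, had fewer CTCF peaks per 100 kb among their genes than the members. The Cyp2c locus on chromosome 19, with 14 genes, held 6 CTCF peaks between its first and last gene (0.508 per 100 kb), and the Cyp3a locus on chromosome 5, with 8 genes, held 4 (0.489 per 100 kb), compared with 2.02 per 100 kb from Cyp2b10 to Cyp2f2. The flanks had more CTCF peaks than the genes at all 3 loci, with 5.5 per 100 kb at Cyp2c, 3 per 100 kb at Cyp3a and 10.5 per 100 kb at the members. For Rad21 the densities among the genes were 0.763, 2.44 and 2.43 per 100 kb in the same order, against 7, 3 and 11 per 100 kb in the flanks. The Cyp3a locus and the members thus had close Rad21 densities among their genes, while their CTCF densities lay further apart. The share of Rad21 peaks that were CNC was 69.2% of 26 in the Cyp3a window (50.01 to 83.5%), 39.1% of 23 in the Cyp2c window (22.2 to 59.2%) and 34.6% in the members' window. The share of 50-base words found once was 73.3% in the Cyp2c window, 64.1% in the Cyp3a window and 75.5% in the members' window. No test of these differences was made, as each locus is a single region in pooled lists. On all autosomes the densities were 2.71 CTCF peaks and 2.72 Rad21 peaks per 100 kb.

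**Figure D5:**
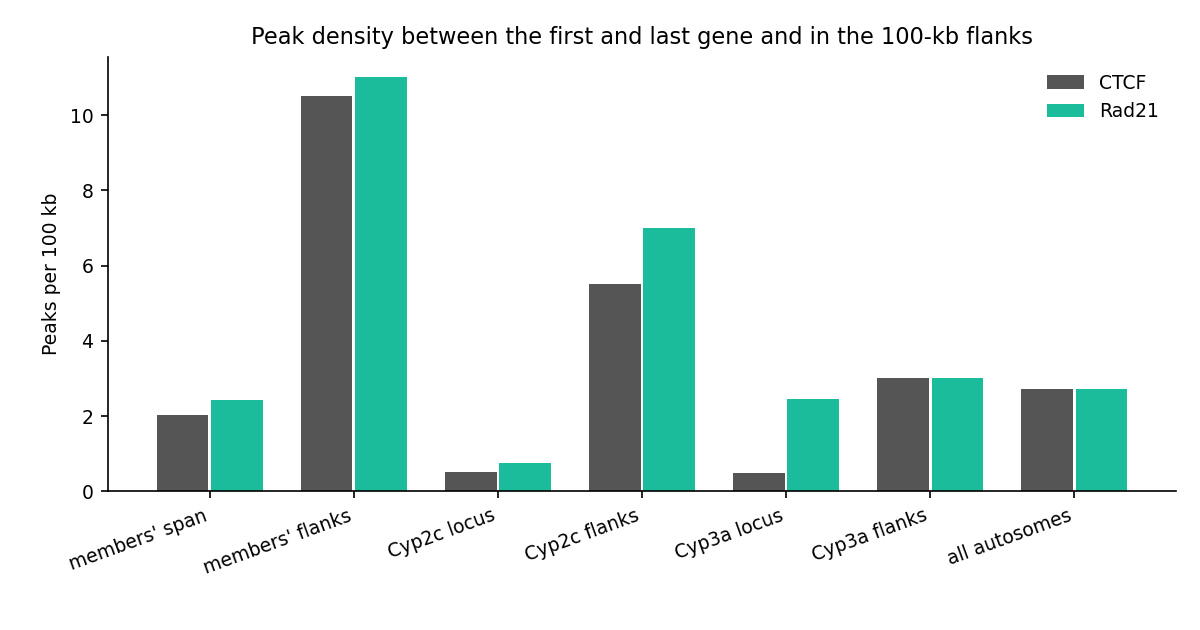
CTCF and Rad21 peaks per 100 kb between the first and last gene and in the 100-kb flanks for the members and for the Cyp2c and Cyp3a loci, beside all autosomes. The members' span has 2.02 CTCF peaks per 100 kb, above 0.508 and 0.489 in the other 2 loci, and its flanks have 10.5, against 5.5 and 3 in the flanks of Cyp2c and Cyp3a.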

How the data were processed

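Peaks of CTCF (4 libraries) and Rad21 (3 libraries) ChIP-seq from female mouse liver were analysed. Per the submitters' processing notes and methods, Bowtie2 was used for alignment to the mm9 build and MACS2 for peak calling on the combined libraries of each antibody. Reads that mapped to more than 1 place, peaks in blacklisted regions and peaks made up of PCR duplicates were discarded by the authors. In each deposited list the authors give start and end coordinates, a summit position, a score, a fold enrichment (a ratio over the local background) and a −log10 q value. The −log10 p column was not used. Fold enrichments were used as deposited and were not compared between antibodies. Absence from a list does not show absence of binding, and the peak lists hold no read depth. Depth was not used here, and no interval is given for a single peak's value. No column of single libraries was left unused (0 columns).

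Genes came from the GENCODE annotation of mm9 and sequences from the same build with pysam 0.24.0. A CTCF matrix of 20 bases was learned from 1000 CTCF peaks on even-numbered autosomes, and a motif required 13.5 bits, reached in 1% of 12991 flanking windows. On simulated sequences 398 of 400 planted motifs were found and 3 of 400 sequences without one were called. Overlap calls were tested on simulated intervals, with 0 wrong calls. Words of 50 bases were counted over both strands of mm9 as exact matches. Related copies were alignments of the 301 bases around each summit to the window (blastn 2.17.0+, at least 150 bases and 75% identity, at most 12 copies) and coding sequences were aligned with mafft v7.526. Shares have Wilson intervals at the 95% level. Mice were outbred, while all sequence is from the reference strain.

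The members and lists were chosen with earlier results of these data known. The search for related copies and genomic copies, the comparison with autosomal tiles, the motifs counted anywhere in a peak and the autosomal motif shares per class were added after the data were seen, and the copies, the weaker peaks of the gaps and the motifs of Lone CTCF peaks that are given were also chosen then. Named were the members, the strongest peaks in each gap and flank, peaks in members or within 5 kb of their starts, CAC peaks with a motif, genes between members or overlapping a named peak, and Cyp2b19, Cyp2b23, Cyp2s1 and Cyp2t4. Cyp2s1 and Cyp2t4 lie in the flanks and are not described further. Alternatives were other peak thresholds, overlaps, window extensions, start-site distances, motif settings and words of 36 bases. No tests were run, as there are no replicates.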

Additional observations from a re-analysis of the deposited data

How the results depend on the processing

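The gaps between gene bodies that held a CAC peak remained 4 in number under every overlap and peak threshold tried. Counted between start sites with a fold enrichment of at least 5, a choice made after the data were seen, 5 of 8 pairs had a CAC peak, since the CTCF peak in Cyp2g1 was below 5. The 6 of 9 Cyp2b copies with a CAC peak were 6 also at −log10 q of at least 10 and at a fold enrichment of at least 5. Peak numbers followed the thresholds: the CTCF peaks fell from 46 to 28 at a fold enrichment of at least 5 and rose to 70 with 200 kb on each side, and the Rad21 peaks fell from 52 to 34 at −log10 q of at least 10 and to 25 at a fold enrichment of at least 5. With them the CNC share fell from 34.6% to 20.6% and 20%, below its interval, where the autosomal share was 19.5% and 16.3%. It rose to 44.2% both with an overlap of at least 50% of the peak and with summits within 100 bp, where the autosomal share was 33.2% and 39.4%. The motif share rose from 50% to 65.2% at a 5% background rate, at which the autosomal share was not computed. The number of members with a peak near the outermost start of the gene was 3 at 5 kb and 1 at 1 kb. The autosomal share at 1 kb was not computed. With words of 36 bases, 66.9% of the window was found once. No paired analysis was possible because the lists are pooled and carry no replicate numbers.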
